A study of Mus musculus with 4 samples.

Results

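The genes described here are 9 components of phosphoinositide signalling, chosen by symbol from the 17478 genes that the tables list. They are Inppl1 and Inpp5d, which encode the lipid phosphatases SHIP2 and SHIP1, the related phosphatase genes Inpp4a and Inpp4b, the class I phosphoinositide 3-kinase (PI3K) genes Pik3ca, Pik3cd, Pik3r1 and Pik3r5, and the PI3K inhibitor gene Pik3ip1. Inppl1 was picked because its level was much lower in the knockout, and the others are its relatives and the enzymes it opposes, with the question whether any relative makes up for it. The comparison between genotypes was therefore used in the choice, and all of its values for these 9 genes are given as a description, without p-values. All 9 were listed in every library and passed the filter on low counts.

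Class I PI3K is recruited to activated receptors, including the T cell costimulatory receptors, and adds a phosphate to a membrane phosphoinositide, and the product draws kinases such as AKT to the membrane. SHIP1 and SHIP2 remove a phosphate from that product, and INPP4A and INPP4B act on the lipid that the SHIP enzymes leave. SHIP1 is the family member known from blood cells, while SHIP2 is expressed in most tissues.

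RNA sequencing was done on CD4+ T cells of C57BL/6 mice aged 6 to 8 weeks. Naive cells, CD4+ CD44lo CD62Lhi, were sorted from spleen and lymph nodes and cultured for 3 days with antibodies to CD3 and CD28 under Th9 conditions, which favour interleukin 9 production. There were 2 wild-type libraries and 2 libraries labelled BFAR-/-, from mice described as lacking the gene conditionally in T cells. Which Cre line was used, and which part of Bfar was deleted, is not given in the sources used here. Nothing says that the 2 libraries of a genotype came from separate mice, so p-values and errors reflect the spread among these 4 libraries alone, and that spread may be technical.

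The libraries held 19058009 to 19782923 expected counts. Bfar, a ubiquitin ligase gene, had a count per library size, written CPM, of 36.4 and 33.0 in the wild type and 8.45 and 7.79 in the knockout, so both knockout libraries matched their label. The 8 T cell markers summed to 2745 to 2749 CPM in the wild type and 2903 to 2951 in the knockout, with Cd4 at 581.3 CPM or more. B cell markers summed to 6.36 and 6.93 CPM in the wild type and 5.55 and 5.42 in the knockout, of which Cd79b had most, and myeloid markers to between 6.16 and 6.58, of which Cd68 had most. CD8 and natural killer markers summed to between 12.8 and 14.7 CPM, mostly Cd8b1, and mast cell markers to 1.67 and 1.37 in the wild type and 3.58 and 3.32 in the knockout, nearly all Kit. Of the B cell list 6 of 7 genes were listed, of the myeloid list 6 of 8, of the CD8 and natural killer list 5 of 6, and of the mast cell list 2 of 5, and the others were not analysed here. Kit was the only gene of these 4 lists that passed the test, of 9 tested, with a log2 fold change of 1.28. The part of such cells in the results was not tested. In these bulk samples, fewer cells of a type and less RNA per cell cannot be told apart.

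A start of Inppl1 is shown because its RNA differed most among the 9 genes, beside that of Pik3r5, which was higher in the knockout. Inppl1 has 2 RefSeq starts, 402 bases apart, and only the outer one is shown. Which of them is used more was not tested. Each run is the part of the 250 bases before the RefSeq start that lies outside the exons of the gene, 5′ to 3′ on the gene's strand, from RefSeq sequence of GRCm38. Capitals mark the GC box GGGCGG on either strand, a motif bound by Sp-family factors. The Inppl1 run is chr7:101838230-101838476, minus strand, 247 bases, and the Pik3r5 run is chr11:68431875-68432120, plus strand, 246 bases.
Inppl1: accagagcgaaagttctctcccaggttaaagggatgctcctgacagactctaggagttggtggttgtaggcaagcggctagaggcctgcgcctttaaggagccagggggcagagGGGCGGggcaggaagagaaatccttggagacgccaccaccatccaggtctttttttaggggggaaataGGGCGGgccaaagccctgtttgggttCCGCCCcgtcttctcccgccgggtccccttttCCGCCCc
Pik3r5: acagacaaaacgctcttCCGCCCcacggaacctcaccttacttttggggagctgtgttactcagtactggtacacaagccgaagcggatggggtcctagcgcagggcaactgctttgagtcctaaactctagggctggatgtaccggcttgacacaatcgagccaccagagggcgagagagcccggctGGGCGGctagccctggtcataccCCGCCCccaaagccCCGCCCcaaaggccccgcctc
Both runs hold 4 GC boxes, and 32.3% and 32.2% of all 32851 RefSeq promoter windows hold at least 1 in the same stretch. Neither run holds the E-box CACGTG, the FOXO motif GTAAACA or the hypoxia-factor core ACGTG on either strand, and the E-box contains that core. In the stretch used for Inppl1, these letters occur in 5.95%, 3.13% and 16.4% of all windows. The match of letters is a description and does not locate a bound site.

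Inppl1 (gene 16332, chromosome 7, 101822632 to 101838226, GRCm38) was the member that was lower in the knockout. It had 62.9 and 67.2 CPM in the wild-type libraries and 21.5 and 22.5 CPM in the knockout libraries. Both knockout libraries were far below both wild-type libraries, and the spread within a genotype was small beside the gap. On the log2 scale the fitted difference, knockout minus wild type, was -1.56 ± 0.06 (SE, 2 libraries per genotype), a level 2.96-fold lower. Of the 9893 tested genes averaging 5 CPM or more, 8 had a log2 fold change as low as or lower than that, counting Inppl1 itself. Over all tested genes, 28 did. Inppl1 was picked for this fall, so its rank is only a description.

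The tables also list a mean transcript length for each gene, weighted by the estimated share of its transcripts, and this readout was not used in the choice. Inppl1 has 2 RefSeq transcripts whose starts lie 402 bases apart, and their GENCODE M21 models are 4995 and 4730 bases long. The listed length was 4781 bases in both wild-type libraries and 4796 and 4788 bases in the knockout libraries. The genotypes did not overlap, but the mean difference of 10.95 bases is small beside the 265 bases between the models, and the knockout libraries differed from each other by 7.76 bases. With 2 libraries against 2, the smallest two-sided exact permutation p is 0.333. Of the other members with several transcripts, Inpp5d, Inpp4a, Inpp4b, Pik3cd and Pik3r1, the listed lengths overlapped between the genotypes.

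None of the genes beside Inppl1 on chromosome 7 was lower by as much. Of the 3 nearest tested genes on each side, Clpb, a mitochondrial chaperone gene, fell by 0.17 ± 0.06 in log2 level (edgeR adjusted p = 0.0474), and Arap1, a GTPase-activating protein gene, rose by 0.17 ± 0.05 (edgeR adjusted p = 0.0256). Pde2a had a log2 fold change of 0.72 ± 0.41 at about 1 CPM, Anapc15 -0.14 ± 0.09, Tomt -0.06 ± 0.26 and Lamtor1 -0.01 ± 0.05, and these did not pass the test. Anapc15, Tomt and Lamtor1 share 35.8%, 67.2% and 20.5% of their 31-base words with other listed genes, so their own values are uncertain. The gene span of Phox2a overlaps the end of Inppl1 by 95 bases, and Phox2a had at most 4.01 counts in a library, against 414.99 or more for Inppl1.

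The profiles over the 4 libraries nearest to that of Inppl1 were taken by the Euclidean distance between centred log2(CPM + 0.5) values, among genes averaging 5 CPM or more, and the 5 nearest are given. Ubxn11 was nearest, with a distance of 0.324 and CPM values of 34.6, 35.8, 14.4 and 15.3 in wild type 1 and 2 and knockout 1 and 2. Zfp961 followed at 0.350, with 56.8, 57.8, 25.4 and 22.9 CPM, and Atp6v0c at 0.350, with 208.5, 210.5, 65.9 and 54.6 CPM. Zfp868 lay at 0.436 and Cacna1g at 0.446. Atp6v0c shares 11.9% of its 31-base words with Atp6v0c-ps2, so its own value is uncertain. All 5 had lower values in both knockout libraries, which the measure itself requires.

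SHIP1 is the closest relative of SHIP2, and its RNA differed little. Inpp5d (gene 16331, chromosome 1, 87620312 to 87720510) had 169.2 and 167.1 CPM in the wild type and 175.7 and 179.9 CPM in the knockout. Both knockout values were the higher ones, by a narrow gap. The log2 fold change was 0.08 ± 0.04 (SE), with a 95% interval from -0.0023 to 0.16, whose upper end is 1.12-fold. The interval reflects the spread among these 4 libraries alone and cannot exclude a larger difference between mice. Inpp5d was not among the genes called, which means an adjusted p under 0.05 in the edgeR fit across all genes.

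Per transcript length, Inpp5d was the more abundant of the pair in both genotypes. In the deposited FPKM values, which scale fragments to transcript length and library size, Inppl1 had 13.1 and 13.9 in the wild type and 4.44 and 4.63 in the knockout, while Inpp5d had 34.1 and 33.6 in the wild type and 35.3 and 36.2 in the knockout. Inppl1 made up 28.5% ± 1.14 of the pair's summed FPKM in the wild type and 11.2% ± 0.124 in the knockout (SD, n = 2). The sum was 47.4 ± 0.269 FPKM in the wild type and 40.3 ± 0.75 in the knockout, which is 14.9% lower. The difference of Inpp5d, 1.88 FPKM, was 21.0% of the size of the difference of Inppl1, -8.96 FPKM.

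INPP4A and INPP4B act on the next lipid. Inpp4b (gene 234515, chromosome 8, 81342266 to 82134312) had 201.5 and 204.8 CPM in the wild type and 231.2 and 220.2 CPM in the knockout, and Inpp4a (gene 269180, chromosome 1, 37299827 to 37410740) had 23.8 and 25.3 CPM against 27.6 and 27.0 CPM. Both genes were slightly higher in each knockout library than in either wild-type library. Their log2 fold changes were alike, 0.15 ± 0.04 for Inpp4b and 0.16 ± 0.07 for Inpp4a (SE, n = 2), with 95% intervals of 0.07 to 0.24 and 0.00 to 0.31. Inpp4b was among the genes called in the fit across all genes, Inpp4a was not. The call of Inpp4b was lost when wild type replicate 1 or knockout replicate 1 was left out, without the low-count filter and in limma on log2(FPKM + 0.1) or log2(FPKM + 1). Summed over the 4 phosphatases, the FPKM was 76.6 ± 0.488 in the wild type and 72.6 ± 0.233 in the knockout.

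**Figure D1:**
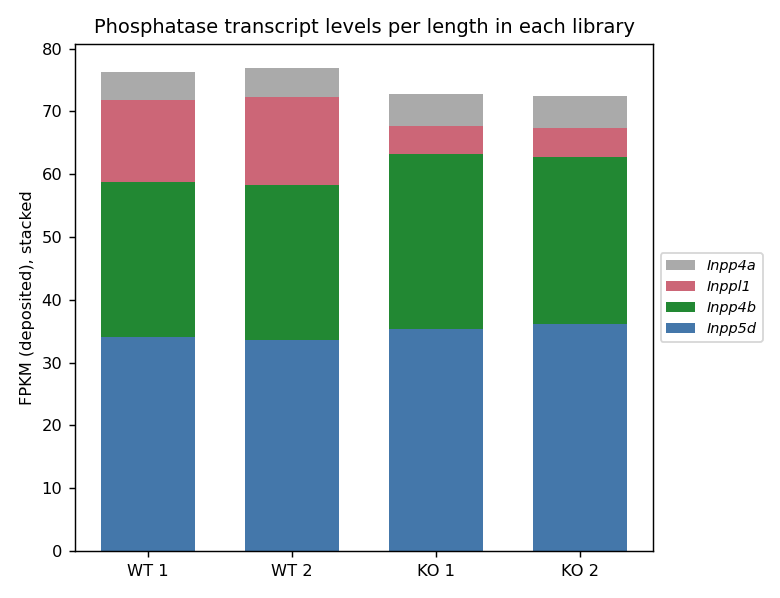
Deposited FPKM of Inpp5d, Inpp4b, Inppl1 and Inpp4a, stacked for each of the 4 libraries on a linear axis from 0, with no error bars since each bar is 1 library. The Inppl1 segment is 13.1 and 13.9 FPKM in wild type 1 and 2, and 4.44 and 4.63 in knockout 1 and 2, while the Inpp5d segment stays between 33.6 and 36.2.

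The catalytic PI3K genes among the 9 differed little. Pik3cd (gene 18707, chromosome 4, 149649168 to 149702566) encodes p110delta, the form found mainly in leukocytes, and had 285.1 and 290.6 CPM in the wild type and 302.7 and 323.8 CPM in the knockout. Its log2 fold change was 0.12 ± 0.04 (SE), and its call was lost in 7 of 12 alternatives, among them those without either wild-type library or without knockout replicate 2, and DESeq2. Pik3ca (gene 18706, chromosome 3, 32397065 to 32466112) encodes p110alpha, which is expressed in most tissues, and had 82.9 and 82.4 CPM against 90.7 and 87.6 CPM. Its log2 fold change was 0.11 ± 0.04, with a 95% interval of 0.01 to 0.20, and it was not called. Both genes had their higher values in the knockout, with gaps of the same order as the spread within a genotype for Pik3cd.

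Of the regulatory subunits, Pik3r1 (gene 18708, chromosome 13, 101680761 to 101768217) encodes p85alpha, the partner of p110alpha and p110delta. Pik3r5 (gene 320207, chromosome 11, 68432125 to 68497849) encodes p101, a partner of p110gamma. Pik3r1 had 262.4 and 255.1 CPM in the wild type and 294.9 and 288.1 CPM in the knockout, a log2 fold change of 0.17 ± 0.04 whose call was lost without knockout replicate 1. Pik3r5 had 27.1 and 24.2 CPM in the wild type and 34.9 and 39.7 CPM in the knockout. The gap of Pik3r5 was wider than its spread in either genotype, and its log2 fold change was 0.54 ± 0.08 (SE), or 1.45-fold. In all, 5.77% of tested genes had a higher log2 fold change than Pik3r5.

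Pik3ip1 (gene 216505, chromosome 11, 3319241 to 3342971) encodes a membrane protein that binds PI3K and inhibits it. It was the least abundant of the 9, with 5.35 and 5.62 CPM in the wild type and 8.60 and 8.27 CPM in the knockout, from 106 and 111 against 166 and 157 expected counts. Both knockout libraries were clearly above both wild-type libraries. The log2 fold change was 0.62 ± 0.13, a 1.54-fold higher level with a 95% interval of 1.27-fold to 1.86-fold. The span of the long noncoding gene Gm11944 overlaps that of Pik3ip1 by 1482 bases, and it had between 14.09 and 21.25 counts in each library, with no order by genotype.

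Among the 9 genes, 6 were called in the fit across all genes, 5 higher and 1 lower, where 26.8% of all 12677 tested genes were called, 13.6% higher and 13.2% lower. In all 9 genes the CPM values of the genotypes did not overlap, which held for 63.5% of tested genes, and in 8 both knockout libraries were the higher ones, against 31.6%. In 1, Inppl1, both were the lower ones, against 31.9%. Inppl1 and Pik3ip1 differed by 1.5-fold or more, against 7.57% of tested genes, of which 5.11% were higher and 2.46% lower. The median log2 fold change was 0.15 over the 9 genes and 0.00 over all tested genes. Because the comparison was used to choose the genes, nothing is read from these counts.

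**Figure D2:**
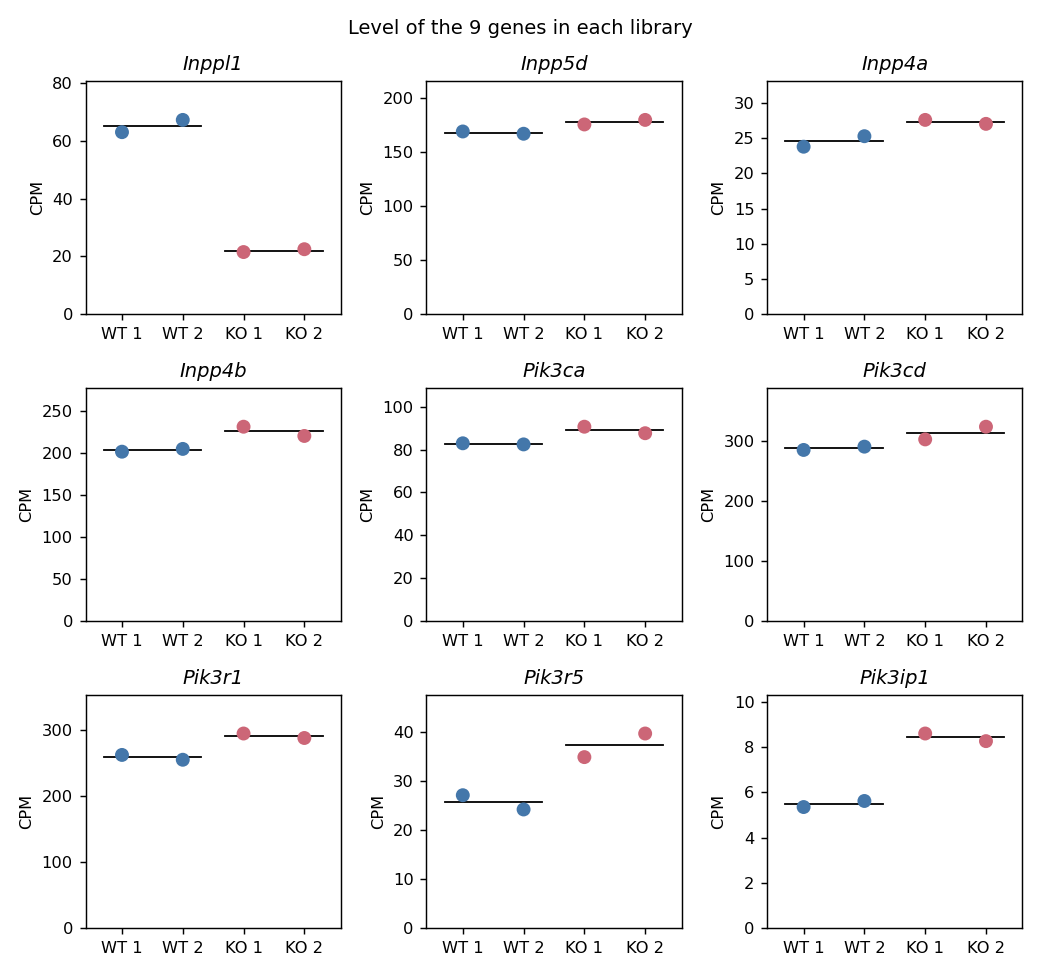
CPM of each of the 9 genes in wild type (WT) 1 and 2 and knockout (KO) 1 and 2, 1 panel per gene with a linear axis from 0, points for libraries and lines for genotype means. Inppl1 lies at 62.9 and 67.2 CPM in the wild type and 21.5 and 22.5 in the knockout, and the other 8 genes lie higher in the knockout, from 1.06-fold for Inpp5d to 1.54-fold for Pik3ip1.

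By FPKM, the order of the 9 genes in the wild type was Pik3cd (58.8), Pik3r1 (37.0), Inpp5d (33.9), Inpp4b (24.6), Inppl1 (13.5), Pik3ca (9.16), Pik3r5 (5.83), Inpp4a (4.53) and Pik3ip1 (2.42). In the knockout the same 4 genes led, and Inppl1 moved from the fifth place to the eighth, below Pik3ca (9.84), Pik3r5 (8.46) and Inpp4a (5.07). No neighbours in either order had overlapping values.

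Relatives outside the 9 were taken from lists of known pathway genes, tested in the same fit. Of 29 other phosphoinositide phosphatases 27 were tested, and 6 rose, 2 fell and 19 did not pass. The share that changed is near that of all tested genes, of which 26.8% were called, 13.6% higher and 13.2% lower. Their median log2 fold change was 0.05, against 0.00 for all tested genes. Mtmr7, a myotubularin-family gene, rose by 0.40 ± 0.07 (edgeR adjusted p = 0.00107, and 0.0682 without knockout replicate 1). Inpp5f, which encodes the phosphatase SAC2, fell by 0.35 ± 0.07 (edgeR adjusted p = 0.00116, and 0.0648 without knockout replicate 2). Synj1, Sacm1l, Inpp5k and Mtmr6 rose and Mtmr4 fell by 0.17 to 0.22 in size. The counts of phosphatases that rose and fell were 3 and 1 without wild type replicate 1 or knockout replicate 1, 6 and 1 without wild type replicate 2, and 2 and 1 without knockout replicate 2.

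**Figure D3:**
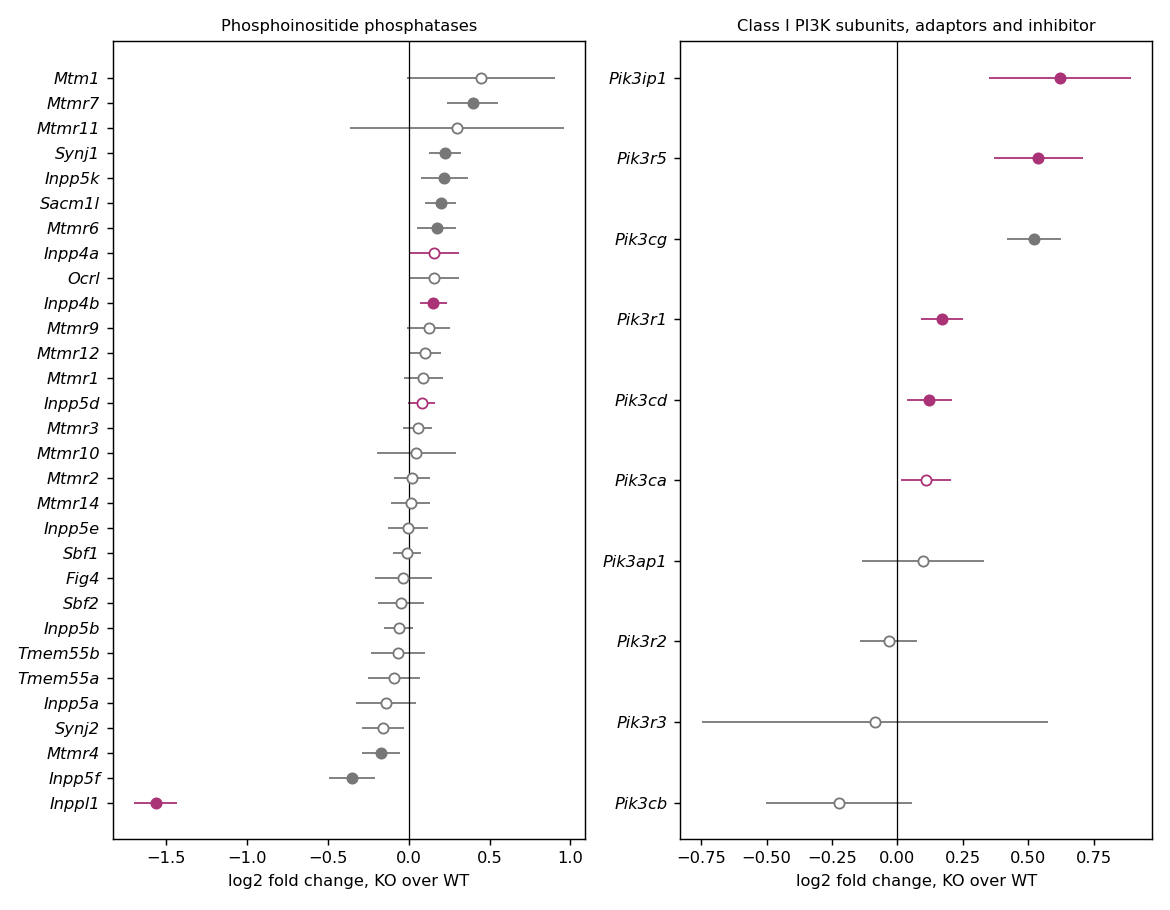
Log2 fold change, knockout over wild type, of tested phosphoinositide phosphatases, all but 1 (left) and of class I PI3K subunits, adaptors and the inhibitor (right), with bars for the 95% interval from the edgeR fit (n = 2 per genotype). Magenta marks the 9 genes and filled points the genes called in the fit, and Inppl1 at -1.56 lies apart from the other phosphatases plotted, while Pik3cg at 0.52 lies beside Pik3r5 at 0.54.

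Of the class I PI3K genes outside the 9, 5 were tested, where 26.8% of all tested genes were called, and only Pik3cg changed. It encodes p110gamma, the form driven by G protein-coupled receptors, and had 167.4 and 179.9 CPM in the wild type and 238.0 and 261.1 CPM in the knockout. Its log2 level rose by 0.52 ± 0.05 (edgeR adjusted p = 1.97e-06, and at most 0.0083 in the 12 alternatives), close in size to its partner Pik3r5. Pik3cb, which encodes p110beta, had -0.22 ± 0.13 (edgeR adjusted p = 0.23), Pik3r2 -0.03 ± 0.05, Pik3r3 -0.09 ± 0.31 and the adaptor gene Pik3ap1 0.10 ± 0.11, and none of these passed. Pik3r6, the other partner gene of p110gamma, had under 1 CPM in every library and was not tested. The 4 catalytic genes summed to 95.5 ± 1.88 FPKM in the wild type and 112.1 ± 5.32 in the knockout, and the share of Pik3cd in that sum was 61.5% ± 0.613 and 57.0% ± 0.0458 (SD, n = 2). None of the 4 tested genes of class II and III PI3K passed in the edgeR fit that gave the calls here, in limma or in DESeq2. In that edgeR fit 2 of them, Pik3c3 and Pik3r4, had an unadjusted p under 0.05. For Pik3c3, the class III enzyme, the difference was 0.17 ± 0.06 in log2 level (edgeR adjusted p = 0.0501), and the gene passed in 4 of the 12 alternatives, all of them edgeR fits with another scaling, filter or block.

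Across 9 lists of pathway genes outside the members, 51 of 128 tested genes changed, 39 upward and 12 downward, with a median log2 fold change of 0.05. That is 39.8%, against 26.8% of all tested genes. All 9 lists were chosen with earlier results of these data known, so nothing is read from this share. The same holds for the counts of each single list. The adjusted p-values of genes named from the lists are a description for the same reason. With any 1 library left out, fewer pathway genes were called, and so were fewer of all tested genes. Fewer calls in a list with 1 library left out are therefore not by themselves a trait of that list.

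Genes of receptors that feed PI3K, and of an adaptor, formed another list. Of 8 tested, 6 rose in the edgeR fit and 5 in DESeq2, and none fell in either (0 at an unadjusted edgeR p under 0.05). The median log2 fold change was 0.20. Over all tested genes, 13.6% were called higher and 13.2% lower. Cd28, the main costimulatory receptor, rose by 0.34 ± 0.04 (edgeR adjusted p = 3.21e-05), Igf1r, a growth factor receptor, by 0.33 ± 0.05 (1.93e-04) and the costimulatory receptor gene Icos by 0.23 ± 0.04 (3.54e-04). Each had higher CPM in both knockout libraries than in either wild-type library.

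Genes of proteins that bind PI3K lipids went both ways, where 13.6% of all tested genes were called higher and 13.2% lower. Of 20 tested genes 8 rose and 3 fell, with a median of 0.08, and the counts were 4 and 1 without wild type replicate 1, 7 and 2 without wild type replicate 2, 5 and 0 without knockout replicate 1, and 3 and 2 without knockout replicate 2. The membrane-binding protein gene Plekha2 rose by 0.30 ± 0.04 (edgeR adjusted p = 9.94e-05), and the adaptor gene Gab2 by 0.88 ± 0.15 from 4.09 to 7.55 CPM (4.50e-04). Phosphoinositide kinases other than PI3K had 1 rise and 3 falls among 11, and in DESeq2 there were 0 of each. None of the 3 genes named here kept its call in every alternative. Pip5k1b fell by 0.25 ± 0.06 (edgeR adjusted p = 0.00639, up to 0.0786 in DESeq2), Pi4k2b rose by 0.29 ± 0.08 (0.0141, up to 0.133 without knockout replicate 2) and Pip5k1c fell by 0.14 ± 0.04 (0.0279, up to 0.268 without wild type replicate 1).

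Most AKT and mTOR genes, downstream of the PI3K product, did not pass. Of 26 tested, 4 rose, 3 fell and 19 did not pass, and the median was -0.06. The share that changed is near that of all tested genes, of which 26.8% were called, 13.6% higher and 13.2% lower. Eif4ebp1, a translation repressor gene controlled by mTOR, fell by 0.21 ± 0.04 (edgeR adjusted p = 6.13e-04). Rictor, a subunit of the mTOR complex that phosphorylates AKT, rose by 0.24 ± 0.05 (edgeR adjusted p = 0.0028, up to 0.0913 without knockout replicate 2), and the AKT phosphatase gene Phlpp1 by 0.33 ± 0.09 (0.0141, up to 0.143 without knockout replicate 2). The counts of rises and falls were 0 and 1 without wild type replicate 1 or knockout replicate 2, 3 and 1 without wild type replicate 2, and 2 and 1 without knockout replicate 1.

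FOXO factors are kept out of the nucleus by AKT, and their targets include genes of resting T cells. Of 13 FOXO genes and targets 9 rose in the edgeR fit and 8 in DESeq2, and none fell in either (0 at an unadjusted edgeR p under 0.05). The median log2 fold change was 0.34. The shares over all tested genes were 13.6% called higher and 13.2% lower. Il7r, the interleukin 7 receptor, rose by 1.36 ± 0.08 (edgeR adjusted p = 1.26e-08), Sesn3, which encodes sestrin 3, by 0.86 ± 0.05 (2.86e-08) and Ccr7, a homing receptor, by 0.85 ± 0.05 (4.46e-09). The factor genes Foxo1 and Foxo3 had 0.08 ± 0.04 and 0.04 ± 0.05 and did not pass, while Foxo4 rose by 0.35 ± 0.07 (edgeR adjusted p = 0.00178). The count of rises was 6 without knockout replicate 2 and 7 to 9 without each other library in turn.

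Of 14 genes whose products bind SHIP1 or SHIP2, 4 rose and 1 fell, with a median of 0.05. Among all tested genes, 13.6% were called higher and 13.2% lower. Cblb, a ubiquitin ligase gene that restrains T cell activation, rose by 0.70 ± 0.04 (edgeR adjusted p = 2.16e-08), from 138.1 and 147.2 CPM to 227.8 and 236.1 CPM. Bcar1, which encodes the adhesion scaffold p130Cas, rose by 0.68 ± 0.08 (edgeR adjusted p = 1.77e-05), and Sh3kbp1 by 0.21 ± 0.04 (0.0019, and 0.067 without knockout replicate 2). Without knockout replicate 2 there were 2 rises, and without any 1 of the 4 libraries there was no fall.

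**Figure D4:**
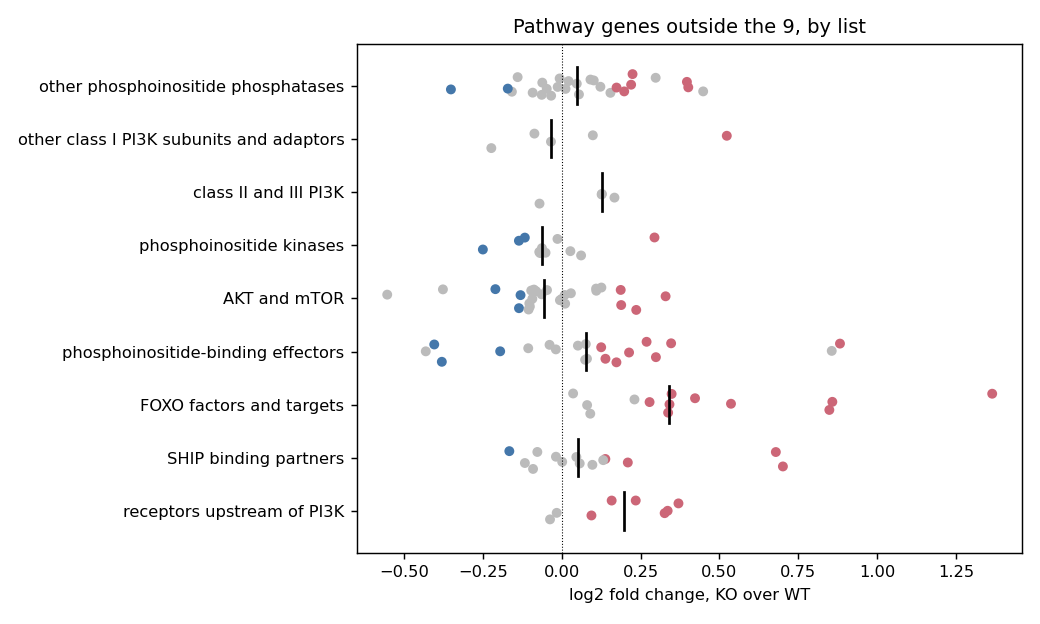
Log2 fold change, knockout over wild type, of each tested pathway gene outside the 9, grouped by list, with red for genes that rose, blue for genes that fell, grey for the rest, and a black line at each list's median. The FOXO list has the highest median, 0.34, and Il7r at 1.36 is its highest gene.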

How the data were processed

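RNA from 4 libraries, 2 per genotype, was analysed from 1 deposited table each. Per the submitters' processing notes, reads were processed with Bowtie and RSEM on GRCm38 (mm10). Neither versions nor the strand setting nor the annotation release is stated there. Per the file headers, the authors deposited for each gene its length, its expected count and its FPKM. A gene absent from a table was treated as 0 there.

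After rounding, expected counts went into edgeR 4.0.16 under R 4.3.3. Its two-sided quasi-likelihood test compared the genotypes, with TMM factors of 0.997 to 1.0022. The filterByExpr defaults (count 10, total 15) left 12677 genes, and p-values were adjusted over all of them by Benjamini-Hochberg, with 0.05 as threshold. The filter leaves genes too low to show a difference untested, and 3 counts correspond to 0.152 to 0.157 CPM. CPM values use TMM-scaled library sizes, means are ± SD, and the SE of a log2 fold change is its size divided by the square root of F. The fit was tested on simulated data. Alternatives used DESeq2 1.42.0, limma 3.58.1 on the deposited FPKM, other scaling and filters, a replicate block, and each library left out.

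The 9 genes and the pathway lists were chosen with earlier results of these data known. Genes named are the 9, all class I PI3K genes, up to 3 called genes with the smallest adjusted p per other list, 5 genes nearest to Inppl1 in profile, its 3 tested neighbours on each side, the most abundant marker of each other cell type, and Bfar. Cd4, Foxo1, Foxo3, Foxo4, Pik3c3, Pik3r4, Synj1, Sacm1l, Inpp5k, Mtmr6, Mtmr4, Phox2a and Gm11944 were added after their values were seen. Not every gene covered by this rule is reported here, but the counts of each list include all its members. Coordinates come from the RefSeq table of GRCm38, which matched 17440 gene identifiers. Shared 31-base words were counted in GENCODE M21 transcripts. Within genotypes, the counts of 2 libraries differed by more than sampling noise (chi-square divided by its degrees of freedom 2.15 and 2.47), so none was a duplicate.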

Additional observations from a re-analysis of the deposited data

How the results depend on the processing

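The CPM values of the genotypes did not overlap in any of the 9 genes, so leaving out 1 library could hardly reverse a direction. No member reversed direction in any of the 12 alternatives. Of the 108 values so obtained, 95 kept their side of the threshold and 13 lost a call, for Pik3cd (7), Inpp4b (5) and Pik3r1 (1). The log2 fold change of Inppl1 lay between -1.61 and -1.39, that of Pik3r5 between 0.44 and 0.63 and that of Pik3ip1 between 0.46 and 0.66. The count of genes called, 3398, was 1928 with no filter on low counts, 1707 in DESeq2, and 1441 to 2355 with 1 library left out. The count of pathway genes called, 51, was 31 with no filter, 30 in DESeq2, 33 in limma with either pseudocount, and 24 to 38 with 1 library left out. The number of members past 1.5-fold, 2, was 1 in limma on log2(FPKM + 1) and 2 to 3 with 1 library left out, with Pik3r5 as the third without wild type replicate 1 (log2 fold change 0.62) or knockout replicate 1 (0.63). The cause was not tested. With 1 library left out, the lone library of its genotype is assumed to vary like the others. The summed FPKM of Inppl1 and Inpp5d differed by -7.61 to -6.55 with 1 library left out, and the listed length of Inppl1 by 7.07 to 14.8 bases.

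The replicate numbers are shared by the genotypes but no label pairs the libraries, and the deviations of same-numbered libraries had a correlation of 0.0232 over 12677 genes. With the replicate block 3952 genes, 6 members and 57 pathway genes were called, and it lost no call of a member. With 2 libraries per genotype and 106 to 166 counts, Pik3ip1 is the member whose value depth limits most.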
